A study of Mus musculus with 3 samples.

Results

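The AP-1 family genes are the members of the Fos, Jun and ATF groups whose proteins pair to form the transcription factor AP-1. They were taken as a fixed list of gene symbols, Fos, Fosb, Fosl1, Fosl2, Jun, Junb, Jund, Atf3 and Batf3, and all 9 were found among the 24421 genes of the read counts. They were measured with RNA-Seq of mouse ES cells in which the nucleoporin NUP153 had been depleted with shRNAs. The study asked how NUP153 controls transcription, and Fos and Jun are among the immediate early genes that it went on to examine in HeLa cells. There were 3 libraries with 1 library per condition. The control library came from wild type cells with a control shRNA, and the NUP153 KD-1 and NUP153 KD-2 libraries came from cells with either of the shRNAs against NUP153. The cells of all 3 conditions were the undifferentiated female line EL 16.7 (strain background F2:129S1/CastEiJx 129S1). All were kept in LIF on γ-irradiated fibroblast feeders from Tg(DR4)1Jae/J mice, transduced with lentivirus and selected with puromycin. With 1 library per condition no spread between replicates could be measured, so that each fold change compares libraries and its interval covers the counting of reads only.

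AP-1 is a dimer of basic leucine zipper proteins. Jun proteins pair with each other or with Fos proteins, whereas Fos proteins need a Jun partner, and the dimers bind short palindromic DNA elements at promoters and enhancers. Fos, Fosb, Jun, Junb and Atf3 are immediate early genes, which are transcribed within minutes of growth factor, serum or stress signals through MAP kinases, and their mRNAs are short-lived. Fibroblasts in serum are a textbook setting for AP-1, and in ES cells the family is better known from differentiation.

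Reads on genes numbered between 69839336 and 85258834 per library. Levels are given as CPM, the reads of a gene relative to all reads on genes of its library. Nup153, the targeted gene, had 385 CPM in control against 193 CPM in KD-1 and 159 CPM in KD-2. This was a log2 fold change of -0.98 for KD-1 (95% counting interval -1.003 to -0.948) and of -1.37 for KD-2 (interval -1.40 to -1.34). The markers of ES cells and of the feeder fibroblasts were both present in every library, with none of the 10 and 12 genes at 0 reads. Summed over their lists, ES cell markers had 4715 CPM in control against 5100 CPM in KD-1 and 3846 CPM in KD-2. Feeder fibroblast markers had 1572, 898 and 3059 CPM, so that the libraries differed in how much of their RNA carried fibroblast markers, with KD-1 lowest and KD-2 highest. In bulk RNA, fewer cells of a type and less RNA per cell cannot be told apart.

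Comparisons were limited to genes that averaged 10 reads or more per library, which left 16670 genes and 8 of the 9 AP-1 family genes. Batf3, a BATF family protein that pairs with Jun in dendritic cells, had 4 reads in control against 2 reads in KD-1 and 7 reads in KD-2 and is given by its reads alone. A gene was called when its fold change after upper-quartile scaling exceeded 1.5 in either direction. In the KD-2 library all of the 8 genes were called higher than in control, where 19.6% of the 16670 genes were called higher and 7.61% lower. At a fold of 2, 4 of the 8 were called higher (Fosl1, Jun, Junb and Jund), where 6.57% of all genes were. In the KD-1 library 0 of the 8 were called higher and 0 lower, where 9.11% of all genes were called higher and 5.47% lower. The median log2 fold change of the 8 genes was 1.02 in KD-2 and -0.08 in KD-1, and that of all genes compared was 0.04 in KD-2 and 0.03 in KD-1. Both comparisons share the control library.

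The Jun genes, whose proteins can bind DNA as dimers with each other or with Fos proteins, all exceeded a fold of 2 in KD-2, as did Fosl1 among the Fos genes. Junb, a Jun protein that activates transcription less strongly than Jun and can restrain it, had 47.2 CPM in control against 47.5 CPM in KD-1 and 219 CPM in KD-2. Control and KD-1 were at nearly the same level and KD-2 stood far above both. Its fold change in KD-2 was 4.33 (interval 4.17 to 4.50), and 0.306% of all genes compared had a larger one. In KD-1 its log2 fold change was 0.03, with an interval of -0.03 to 0.10 that includes 0. Junb lies on chromosome 8 from 84974484 to 84978718 on the minus strand (GRCm38), and its exons overlap Prdx2 on the opposite strand. Prdx2, a peroxiredoxin, was at -0.25 in KD-2 and at -0.02 in KD-1 on the log2 scale. Whether reads of Prdx2 took part in those of Junb was not tested.

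Jund, the Jun protein that is usually present in resting cells, had 4.92 CPM in control against 5.00 CPM in KD-1 and 16.8 CPM in KD-2. Again only the KD-2 library stood apart among the 3. Its fold change in KD-2 was 3.19 (interval 2.83 to 3.597), and its log2 fold change in KD-1 was 0.04 (interval -0.16 to 0.25). Jund is a gene of 1 exon on chromosome 8 from 70698949 to 70700616, and its exon overlaps Gm11175 on the opposite strand, a gene that was not counted.

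Jun, the founding member of the family and the partner of Fos in the classical AP-1 dimer, had 30.4 CPM in control against 22.5 CPM in KD-1 and 75.1 CPM in KD-2. It was the lowest in KD-1 and the highest in KD-2. Its fold change in KD-2 was 2.31 (interval 2.20 to 2.43). In KD-1 the log2 fold change was -0.41 (interval -0.50 to -0.32), which was below the fold of 1.5. Jun is also a gene of 1 exon, on chromosome 4 from 95049034 to 95052222 on the minus strand, and overlaps Junos, an antisense gene that was not counted. Because the strand setting of the counting is not given in the sources used here, reads of such antisense genes could not be told apart from those of Jun and Jund.

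The promoter sequences of the family were examined for letters that they share. RefSeq promoter windows (GRCm38.p6), 250 bases before to 50 bases after each start, were found for 8 of the 9 genes, all except Fosl1. The 250 bases before the start are shown for Jun and Junb, the genes with the widest differences in reads, and for Fos. The windows are placed at RefSeq starts, which are those of the GENCODE gene models for Jun and Fos and lie 30 bases upstream of it for Junb and 1210 bases upstream for Jund, so that the bases just before the GENCODE start of Jund were not searched. The RefSeq start lies inside the GENCODE gene by 34706 bases for Atf3, 671 bases for Fosl2, 567 bases for Batf3 and 6 bases for Fosb. Capitals mark TGACATCA in Jun, CCAAT in Jun and Junb, and, in Fos, TGACGT followed downstream by TATAAA.
Jun, chr4:95052223-95052472, minus strand: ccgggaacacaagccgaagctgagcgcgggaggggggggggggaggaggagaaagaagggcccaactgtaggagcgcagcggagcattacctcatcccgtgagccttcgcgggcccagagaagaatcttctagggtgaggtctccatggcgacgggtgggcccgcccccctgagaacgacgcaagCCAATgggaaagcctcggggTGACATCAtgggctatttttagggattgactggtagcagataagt
Junb, chr8:84978749-84978998, minus strand: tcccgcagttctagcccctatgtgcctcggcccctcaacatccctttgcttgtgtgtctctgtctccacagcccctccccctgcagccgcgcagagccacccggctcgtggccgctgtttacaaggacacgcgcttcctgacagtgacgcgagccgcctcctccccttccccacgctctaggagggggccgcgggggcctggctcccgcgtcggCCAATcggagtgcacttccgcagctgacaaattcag
Fos, chr12:85473640-85473889, plus strand: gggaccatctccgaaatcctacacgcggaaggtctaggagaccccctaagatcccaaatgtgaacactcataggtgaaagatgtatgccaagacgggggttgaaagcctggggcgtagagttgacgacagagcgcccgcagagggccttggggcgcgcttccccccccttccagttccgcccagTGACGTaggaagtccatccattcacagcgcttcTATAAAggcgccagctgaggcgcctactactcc

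The Jun promoter holds TGACATCA, a variant of the AP-1 element, which begins 45 bases before the start, and CCAAT at 65 bases. TGACATCA was found in the windows of 1 of the AP-1 family genes and in 3.62% of all 32851 promoter windows. The consensus AP-1 element TGACTCA was in none of the family's windows and in 5.20% of all windows, and TGACGTCA was in none of them and in 1.79% of all windows. The CArG box, the element of serum response factor, was in none of them and in 1.63% of all windows. Bases farther upstream than the windows were not searched, for Fos as for the other genes. A CArG box or AP-1 element there would have been missed. The Fos promoter holds TGACGT at 66 bases before the start and TATAAA at 33 bases, and Atf3 holds the first of these on the other strand at 8 bases. TGACGT, which is contained in TGACGTCA, was in 7.51% of all windows. The share was 13.6% for TATAAA, which Junb also holds just after its RefSeq start, and 37.4% for CCAAT, which Atf3 holds as well. GGGCGG, a GC-rich element, was in the windows of 6 of the AP-1 family genes, among them Jun, Fos and Atf3, and in 35.7% of all windows. All searches covered both strands.

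The Fos genes, whose proteins need a Jun partner, had lower fold changes in KD-2 than each Jun gene, except for Fosl1, which was above Jun and Jund. Fos, the immediate early gene that responds fastest to serum, had 14.0 CPM in control against 10.6 CPM in KD-1 and 23.7 CPM in KD-2. As for Jun, the KD-1 library was the lowest and the KD-2 library the highest. Its fold change in KD-2 was 1.59 (interval 1.47 to 1.72), so that its call rests close to the fold of 1.5. In KD-1 its log2 fold change was -0.37 (interval -0.51 to -0.24). Fos lies on chromosome 12 from 85473890 to 85477273 on the plus strand in 4 exons.

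Fosb, an immediate early gene with a long-lived truncated form in neurons, had 5.29 CPM in control against 5.28 CPM in KD-1 and 10.1 CPM in KD-2. Control and KD-1 did not differ beyond their counting intervals, and KD-2 was higher by a fold of 1.78 (interval 1.57 to 2.03). Fosl2, which encodes FRA2, had 30.9 CPM in control against 27.0 CPM in KD-1 and 53.4 CPM in KD-2. On the log2 scale this was 0.69 for KD-2 (interval 0.62 to 0.77) and -0.18 for KD-1 (interval -0.26 to -0.09), a small difference below control.

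Fosl1, which encodes FRA1 and is itself a known target of AP-1, had 19 reads in control against 19 reads in KD-1 and 77 reads in KD-2. It was the Fos gene with the fewest reads in all 3 libraries and the one that differed most in KD-2. Its fold change there was 3.93, with an interval of 2.35 to 6.87 that reflects the low number of reads, and 0.426% of all genes compared had a larger one. In KD-1 its interval ran from -1.21 to 0.78 on the log2 scale, which covers a fold of 1.5 in either direction, so that no difference was detectable at this depth. Its exons, on chromosome 19 from 5447547 to 5455946, overlap Ccdc85b on the opposite strand. Ccdc85b had 579 reads in control against 793 reads in KD-1 and 1368 reads in KD-2, a fold change of 2.29 for KD-2. Whether reads of Ccdc85b took part in those of Fosl1 was not tested.

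Atf3, a stress-induced bZIP protein that pairs with Jun proteins, had 11.7 CPM in control against 13.1 CPM in KD-1 and 19.8 CPM in KD-2. It was the AP-1 family gene with the highest fold change in KD-1 and the lowest in KD-2 among the 8 compared. Its fold change was 1.58 in KD-2 (interval 1.45 to 1.73) and 1.14 in KD-1 (interval 1.04 to 1.25). For Fos and Atf3 the lower end of the interval in KD-2 was under the fold of 1.5, and for the other 6 genes it was above it.

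The knockdown libraries were also compared directly, which leaves the control library out. Of the 8 AP-1 family genes, 7 were called lower and 0 higher in KD-1, where 17.6% of all genes were called lower and 11.8% higher. At a fold of 2, 5 of the 8 were called lower (8.65% of all genes). The log2 fold change of KD-1 against KD-2 was -2.19 for Fosl1 (interval -2.996 to -1.45) and -2.08 for Junb (interval -2.13 to -2.03). It was -1.63 for Jund (interval -1.79 to -1.47), -1.62 for Jun (interval -1.70 to -1.55) and -1.04 for Fos (interval -1.16 to -0.92). Fosl2 and Fosb followed at -0.87 and -0.82. Atf3 was the gene that was not called, at -0.48 (interval -0.59 to -0.36). The order of these values differs from that of Nup153 itself, which was 1.31 times as high in KD-1 as in KD-2.

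The knockdown libraries were then grouped and tested against control by the quasi-likelihood method of edgeR. Only KD-1 and KD-2 share a group, which leaves 1 residual degree of freedom for the spread of each gene. The method therefore draws the spread of each gene towards that of all genes compared. After Benjamini-Hochberg adjustment it called 0 of the 16670 genes and 0 of the 8 AP-1 family genes (0.0% of all genes), while the unadjusted p was under 0.05 for 190 genes. Junb was the AP-1 family gene with the lowest unadjusted p from edgeR, 0.0105, at a log2 fold change of 1.40 and an adjusted p of 1.00. Its adjusted p lay between 0.708 and 1.00 over the other settings. The Wald test of DESeq2 gave Junb a log2 fold change of 1.39 (SE 0.67, adjusted p 1.00) and called 2 genes (0.012%), whereas edgeR called 4 with upper-quartile normalization (0.024%) and 4 without the filter on low counts (0.0189%), none of them an AP-1 family gene. Junb was higher than control in KD-2 by 2.12 and level with it in KD-1. This gap between the knockdown libraries enters the spread that the edgeR test uses, together with the spread of the other genes.

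Levels of different genes were compared per length of their exons, as RPKM, which is CPM divided by exon length in kilobases. In control the order was Junb at 20.5 RPKM, Jun at 9.53, Fos at 5.94, Atf3 at 5.43, Fosl2 at 3.20, Jund at 2.95, Fosb at 0.85, Fosl1 at 0.13 and Batf3 at 0.03. Among neighbours in this order the counting intervals of Fos and Atf3 overlapped, as did those of Fosl2 and Jund, and those of the other neighbours up to Fosl1 did not. The level of Batf3 was that of 4 reads, and its interval overlapped that of Fosl1. In KD-1 Junb (20.7 RPKM) and Jun (7.05) again led, and Atf3 (6.09) stood above Fos (4.51). In KD-2 Junb was at 95.04 RPKM and Jun at 23.5, while Fos at 10.1, Jund at 10.04 and Atf3 at 9.19 were close together.

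Summed over Jun, Junb and Jund, the Jun family had 33.0 RPKM in control against 30.7 RPKM in KD-1 and 129 RPKM in KD-2. Junb made up 62.2% of this sum in control against 67.3% for KD-1 and 73.9% for KD-2, whereas the share of Jun was 28.9%, 23.0% and 18.3%. The Fos family had 10.1 RPKM in control against 8.25 RPKM in KD-1 and 17.8 RPKM in KD-2, of which Fos made up 58.7%, 54.6% and 56.8%. The ratio of the Jun family sum to the Fos family sum was 3.26 in control and 3.72 in KD-1, against 7.25 in KD-2. Fosl1 made up 1.28% of the Fos family in control against 1.33% for KD-1 and 3.055% for KD-2, with its KD-2 share resting on 77 reads.

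Markers of the feeder fibroblasts were also higher in KD-2. Of the 12 feeder markers, 10 were called higher in that library and 0 lower, and all 12 were above 0 there, with their median at 0.81 on the log2 scale. Of the same 12 in KD-1, 6 were called lower and 0 higher, with a median of -0.58. In KD-2 the values lay between 0.43 for Thy1 and 1.36 for Twist2, and Col3a1, a fibrillar collagen, was at 1.02. Fosl1, Junb and Jund had higher values than each of the 12 feeder markers in KD-2, Jun was above 11 of them, Fosb above 6, and Fos, Fosl2 and Atf3 were above 3. In KD-1 the values lay between -1.998 for Postn, a matrix protein of fibroblasts, and 0.09 for Col6a3, another collagen, and Junb at 0.03 was above 11 of the 12. Relative to the median of the feeder markers, Junb was 1.30 higher in KD-2 and 0.62 higher in KD-1 on the log2 scale, and Fos was 0.14 lower in KD-2 and 0.21 higher in KD-1. Of the 10 ES cell markers, KD-2 had 2 called lower and 1 higher, at a median of -0.24, beside 7.61% and 19.6% of all genes. KD-1 had 0 called lower and 1 higher, at a median of 0.10, beside 5.47% and 9.11%. The part of the feeder fibroblasts in the reads of the AP-1 family genes was not tested.

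Fold changes in KD-2 also moved with the GC content of the transcripts. When the genes were split into 10 bins of equal size by the GC content of their longest transcript, the median log2 fold change in KD-2 ran from -0.21 in the lowest bin to 0.50 in the highest. In the highest bin, 44.3% of genes were called higher in KD-2. In KD-1 these medians were -0.01 and 0.11. Jund (67.2% GC), Junb (62.6%) and Fosl1 (58.5%) belong to the highest bin, Fosb and Jun to bin 9, and Fos, Fosl2 and Atf3 to bin 7. Within the highest bin, 1.5% of genes had a larger fold change in KD-2 than Junb, 1.99% a larger one than Fosl1 and 4.11% a larger one than Jund. For Jun the share within its bin was 4.49%, for Fosb 15.9%, and for Fos, Fosl2 and Atf3 between 15.8% and 17.0%. All 8 genes were above the median of their bin in KD-2, by 0.54 for Fosb up to 1.62 for Junb. Whether GC content took part in these values was not tested.

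Other genes of the pathway were taken from lists chosen by their known roles, and their counts stand beside the 19.6% of all genes called higher in KD-2 and the 9.11% called higher and 5.47% called lower in KD-1. Among 11 other bZIP genes that pair with AP-1 proteins, 10 were compared, and 5 were called higher and 0 lower in KD-2, while in KD-1 1 was called higher and 1 lower. Jdp2, a repressor that dimerizes with Jun, was at 1.17 in KD-2 and -0.25 in KD-1. Mafk, a small Maf protein without an activation domain, was at 0.99 in KD-2 and -0.17 in KD-1. Maf had 282 reads in control against 157 reads in KD-1 and 507 reads in KD-2 and was called lower in KD-1, at -1.06, and higher in KD-2, at 0.80. Atf7 and Maff, at 0.29 and -0.28 in KD-1, were not called in either library.

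Of 13 genes for MAP kinases and their kinases, 0 were called in KD-1 and 1 was called higher in KD-2, where 19.6% of all genes were called higher. Their median in KD-2 was 0.03, beside 0.04 for all genes. The called gene was Mapk11, a p38 kinase, at 0.71 in KD-2 and -0.17 in KD-1. Mapk3, which encodes ERK1, was just under the fold of 1.5 in KD-2 at 0.58, and Map2k2, which encodes a kinase of ERK, was at 0.56. In KD-1 Mapk7, which encodes ERK5, was at 0.55 and Map2k7, an activator of JNK, at 0.19.

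Among 10 transcription factors that act at the Fos and Jun promoters, 2 were called higher in KD-2, a share near the 19.6% of all genes, and 2 were called lower in KD-1, beside 5.47% of all genes. These were the same genes, Mef2c and Mef2a, members of the MEF2 family that binds the Jun promoter. Mef2c had 586 reads in control against 276 reads in KD-1 and 1156 reads in KD-2, with log2 fold changes of -1.30 in KD-1 but 0.94 in KD-2. Mef2a was at -0.59 in KD-1 but 0.65 in KD-2. Elk3, an ETS partner of serum response factor, was at 0.47 in KD-2, and Mef2d was at 0.39 in KD-1, and neither was called.

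Genes that limit AP-1, by dephosphorylating MAP kinases or by removing the mRNAs or proteins, were examined next. Of 10 such genes, KD-2 had 6 called higher and 0 lower, at a median of 0.62, whereas 0 were called in KD-1 (median 0.01). Zfp36, which encodes tristetraprolin, an RNA-binding protein that promotes decay of short-lived mRNAs, had 963 reads in control against 901 reads in KD-1 and 2140 reads in KD-2. On the log2 scale this was 1.11 for KD-2 (interval 1.00 to 1.22) and -0.31 in KD-1. The MAP kinase phosphatases Dusp5 and Dusp1 were at 0.93 and 0.68 in KD-2 and at -0.58 and -0.10 in KD-1. Dusp10, a phosphatase of JNK and p38, was at 0.67 in KD-2 and 0.56 in KD-1.

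Of 13 known targets of AP-1, KD-2 had 5 called higher and 0 lower, at a median of 0.54. In KD-1, 3 were called higher and 3 lower, with a median of 0.14. Hmox1, the heme oxygenase that is also induced by oxidative stress, was at 1.22 in KD-2 and 0.52 in KD-1, and Sphk1, a sphingosine kinase, was at 1.10 and -0.58. Plaur, the urokinase receptor, was at 0.99 in KD-2 and -0.29 in KD-1. Timp1, an inhibitor of matrix proteases, and Cd44, an adhesion receptor, were called lower in KD-1, both at -0.87, and were at 0.12 and 0.69 in KD-2. Mmp13, a collagenase, had 1865 reads in control against 3842 reads in KD-1 and 2795 reads in KD-2 and was called higher in KD-1, at 0.83, and not in KD-2. Several of these genes are also transcribed in fibroblasts.

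Among the 12743 genes that averaged 100 reads or more, those with the fold changes most like Fos and Jun were found by the distance between their pairs of log2 fold changes in KD-1 and KD-2, that is over 3 libraries. For Fos these were Lrrk2 (distance 0.0146), Pros1 (0.0164) and Ghr (0.0168). For Jun they were Nbl1 (0.0241), Rspo3 (0.0255) and Fkbp10 (0.0345). Nbl1, which encodes a BMP antagonist, was at -0.39 in KD-1 and at 1.20 in KD-2.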

How the data were processed

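Total RNA depleted of ribosomal RNA was sequenced from 3 libraries, 1 per condition. The authors trimmed single-end reads with Trim Galore 0.4.1, mapped them with TopHat2 2.1.1 to mm10 and counted reads per gene. The deposited values are these raw counts. The methods name featureCounts and the submitters' processing notes HTSeq. Strand setting and duplicate treatment are not given in the sources used here. Summary lines, with 21.5% to 24.1% of reads outside genes and 1.45% to 1.65% ambiguous, were left out.

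Libraries were scaled by edgeR's upper quartile over genes averaging 10 reads or more. Fold changes are ratios of scaled reads without pseudocount (a count of 0 set to 3 reads), with Clopper-Pearson 95% intervals, and levels have Poisson intervals. A fold of 1.5 made a call. The study's likelihood ratio test used a fixed dispersion from spike-ins with RUVSeq. It was not used here, since with 1 library per condition the spread between cultures is not measured. Both knockdown libraries were tested against control with edgeR 4.0.16 (quasi-likelihood, TMM normalization) and DESeq2 1.42.0 in R 4.3.3, and the edgeR test and the Clopper-Pearson intervals, but not DESeq2, were tested on simulated data. Exon lengths and GC content came from GENCODE M21 (GRCm38), matched by symbol for 95.7% of genes, and promoters from RefSeq. Alternatives were TMM, DESeq2's size factors, library totals, no filter, a pseudocount of 0.5 and a fold of 2.

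The AP-1 family genes and the gene lists were chosen with earlier results of these data known. Named in the text were all AP-1 family genes, Nup153, up to 3 genes per list and knockdown with the largest fold changes at a mean of at least 100 reads, and the 3 nearest genes to Fos and Jun. Of these, 1 gene is not reported here. Prdx2, Ccdc85b, Thy1, Col6a3 and the motifs other than TGACTCA, TGACGTCA, TGACATCA and the CArG box were chosen after values or sequences were seen, as was the split by GC content.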

Additional observations from a re-analysis of the deposited data

Results flagged for a closer look

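Jun, Fos and Fosl2 had fewer scaled reads than control in KD-1 and more than control in KD-2, with counting intervals on either side of 0, so that the shRNA libraries moved in opposite directions for the same gene. The log2 fold change of KD-1 against KD-2 was -1.62 for Jun, -1.04 for Fos and -0.868 for Fosl2. With 1 library per shRNA the difference was not tested beyond the counting of reads. In KD-1 none of the 3 genes passed the fold of 1.5.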

How the results depend on the processing

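The 8 calls of AP-1 family genes in KD-2 were also made with a pseudocount of 0.5 and when libraries were scaled by TMM, by their totals or by the size factors of DESeq2, and without the filter on low counts 9 genes were called, since Batf3 with 7 reads was then included. With a fold of 2, 4 genes were called higher in KD-2. In KD-1 no AP-1 family gene was called under these settings, except that 1 gene, Batf3 with 2 reads, was called lower without the filter. Against KD-2, between 5 (fold of 2) and 8 genes (library totals and no filter) were called lower in KD-1. The signs of Fosb, Junb and Jund in KD-1 flipped with the scaling, with Junb between -0.04 and 0.03. Over these settings the log2 fold change in KD-2 ran from 2.05 to 2.21 for Junb and from 0.61 to 0.76 for Fos. Library totals put the median of all genes in KD-2 at 0.14 and called 23.8% of genes higher and 5.01% lower, against 19.6% and 7.61%. In KD-1, DESeq2's size factors gave 7.42% higher and 6.87% lower, and for KD-1 against KD-2 library totals gave 7.49% and 21.3%. For both knockdown libraries as a group, edgeR called 4 genes of all with upper-quartile normalization or without the filter, 0 with DESeq2's size factors, and DESeq2 called 2, none of them an AP-1 family gene. Without KD-1 the group value of Junb was 2.1, and without KD-2 it was 0.00, with no test. The feeder marker median, added after seeing the data, lay between 0.75 and 0.91 in KD-2. No paired analysis was possible because each condition has 1 library. Depth limits Batf3 and Fosl1.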
